A study of Mus musculus with 26 samples.

Results

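The genes described here are those of the cytosolic ribosomal proteins, the protein parts of the large and small subunits of the ribosome, in the lacrimal gland of an autoimmune mouse strain between 4 and 20 weeks of age. They were chosen by symbol alone. Gene symbols of the array's annotation that start with Rpl or Rps followed by a number, with or without a final a or x, were used, as were the P-stalk genes Rplp0, Rplp1 and Rplp2 and Rpsa, while pseudogenes and the Rps6 kinases were left out. Of 69 such symbols, 42 had a probe set that names no other gene, 22 of the large and 20 of the small subunit, among 18194 genes with such a probe set. The other 27 were read only through probe sets that name several genes, or not at all, and are taken up near the end. Each of the 42 genes was represented by the probe set with the highest mean log2 value over the arrays, out of 94. A filter on low values kept 39 of the 42, with 21 of the large and 18 of the small subunit, among 12377 genes kept in all. Rpl12, Rps16 and Rps27 did not pass it, with mean log2 values of 2.28, 2.14 and 2.36 beside array medians between 2.94 and 3.22.

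Most of these proteins are present as a single copy in each ribosome, and the cell makes them in step with each other and with ribosomal RNA. In mammals their messages begin with a C followed by a stretch of pyrimidines, the 5′ terminal oligopyrimidine motif, through which the kinase mTOR and the RNA-binding protein Larp1 control how strongly they are translated. The lacrimal gland secretes large amounts of tear proteins from its acinar cells, so its cells carry many ribosomes. Ribosomal protein messages are among the brightest signals on an array of such a tissue, and some of them serve as internal controls.

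RNA from lacrimal glands of male mice of the strain C57BL/6.NOD-Aec1Aec2 was measured on Affymetrix mouse arrays. Mice aged 4 weeks gave 4 arrays, the ages of 8 and 12 weeks 6 each, and the ages of 16 and 20 weeks 5 each. All groups share the strain, which carries the Idd3 region of chromosome 3 (named Aec1) and the Idd5 region of chromosome 1 (named Aec2) from the NOD mouse on a C57BL/6 background. It is used as a model of Sjögren's syndrome. The submitters describe the 5 ages as pre-disease, early pre-clinical, the time when leukocytes first enter the gland, the early clinical phase, and the onset of impaired secretion. No group of a strain without these regions was used here, so the effect of age cannot be told apart from that of disease. The labels call the arrays biological replicates. The sources used here do not say whether an array holds 1 animal or several, so the p-values speak only of the spread among these samples, which may be technical in part.

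The tissue label was set against defining markers. Of the acinar genes, Pip had age means between 14.59 and 15.02 on the log2 scale, Ltf between 10.98 and 13.42 and Aqp5 between 9.62 and 11.29. Those of Bhlha15 lay between 10.46 and 12.26 and those of Slc12a2 between 8.56 and 10.17. Spdef was lower, between 4.70 and 5.72, and Chrm3 lay between 2.53 and 2.63, below the array medians. In a whole gland, a change in the share of a cell type and a change in the RNA of each cell cannot be told apart. The mean of 16 macrophage genes was 4.82 ± 0.30 (SD, n = 4) at 4 weeks and 6.69, 6.61, 6.37 and 6.47 at the later ages. The mean of 8 plasma cell genes was 5.73, 6.55, 7.23, 6.87 and 7.03 from 4 to 20 weeks, and that of 7 acinar genes 9.33, 9.55, 9.97, 9.26 and 9.30. On replicate 4 at 16 weeks and replicate 1 at 20 weeks these means were 5.59 and 4.82 for macrophage genes, 5.24 and 5.59 for plasma cell genes and 7.85 and 8.05 for acinar genes, the lowest of their ages. The mean of 7 salivary gland genes differed widely between arrays, from 5.19 to 12.53 at 4 weeks and from 4.50 to 11.37 at 8 weeks. The part of these cell types and of salivary gland RNA in the values of the ribosomal protein genes was not tested.

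Of the 26 arrays, 2 stood apart from the rest. For each comparison the number of genes of the class called is given with and without them, while some values of single genes are given for 1 set only. On replicate 4 at 16 weeks the ribosomal protein genes split. Of the 39, 9 lay more than 3 log2 units below their own median over all arrays, the lowest being Rpl37a at -7.31, while the median gene lay at -0.65. On replicate 1 at 20 weeks the genes were low together. None of the 39 lay above its own median there, and the median gene lay at -2.55. On the other 24 arrays the median deviation of the 39 genes ran from -0.57 to 0.46.

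Many other genes were low on these 2 arrays too. Of all genes, 4.44% lay more than 3 units below their own median on replicate 4 at 16 weeks and 11.1% on replicate 1 at 20 weeks, against at most 0.396% on any other array. Among the 472 genes with a mean over 10, called bright genes here, the shares were 33.5% and 38.8%. The log2 values of these 2 arrays also had the smallest spread over all genes, with SDs of 1.68 and 1.36 against 1.78 to 2.27 on the others. The actin controls read the 3′ and the 5′ end of 1 message, and the gap between them, a measure of RNA integrity, averaged 2.90, 2.63, 3.69, 4.56 and 3.89 log2 units from 4 to 20 weeks. This gap was 5.71 on replicate 4 at 16 weeks, the largest of all arrays, and 4.97 on replicate 1 at 20 weeks, the largest of that age. The same gap of the Gapdh controls was 1.62 and 3.08, among the other 16-week arrays and the largest at 20 weeks. The part of array spread and RNA integrity in the results was examined only through fits that hold them as covariates.

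**Figure D1:**
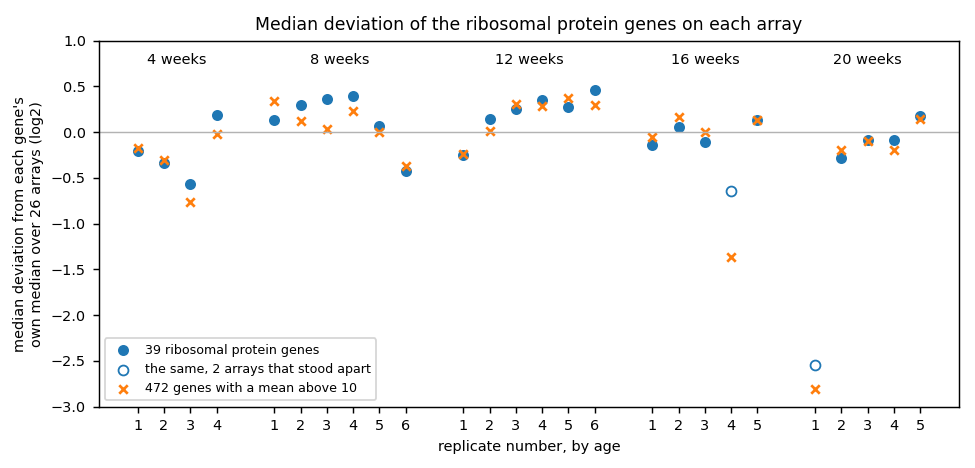
Median deviation of 39 ribosomal protein genes (circles) and of 472 bright genes (crosses) from each gene's own median over 26 arrays, in log2 units, for each array in order of age. Open circles are replicate 4 at 16 weeks and replicate 1 at 20 weeks, at -0.65 and -2.55. The crosses lie near the circles on most arrays, but on replicate 4 at 16 weeks the cross is lower, at -1.37. Replicate 3 at 4 weeks, at -0.57, is the lowest of the remaining circles.

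**Figure D2:**
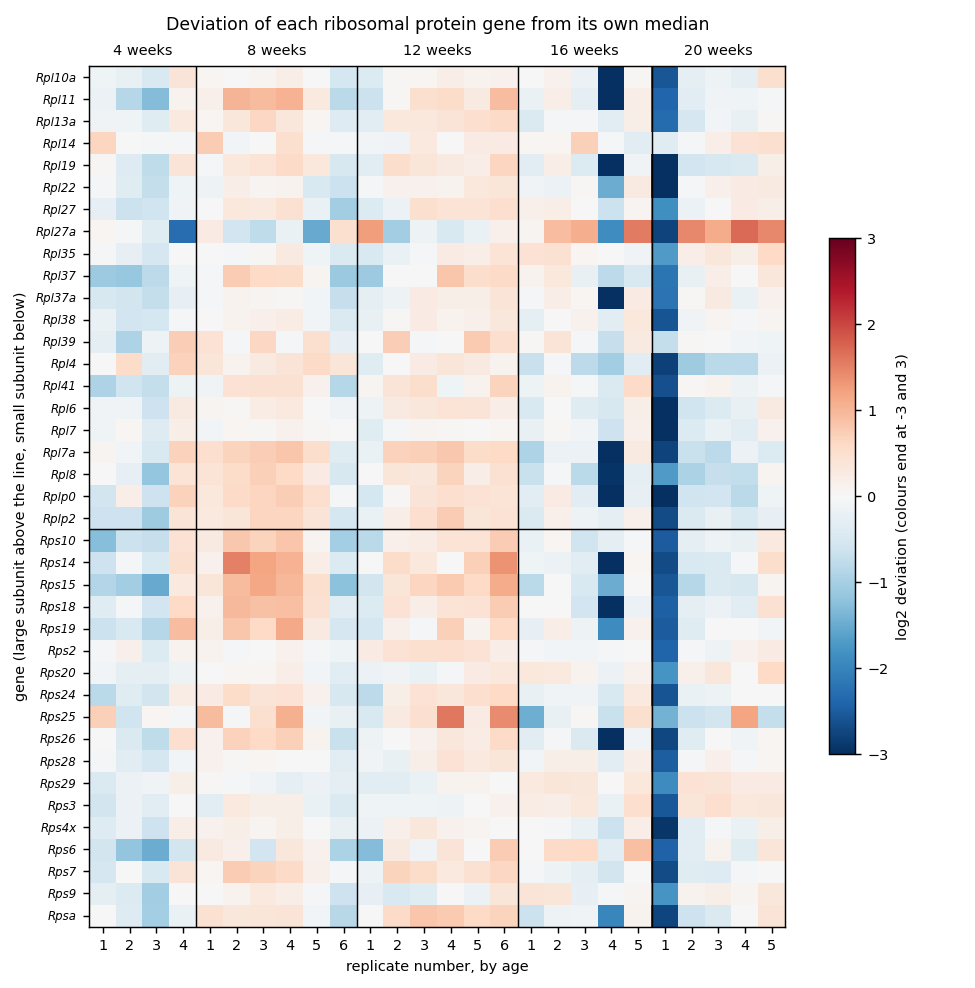
Deviation of each of 39 ribosomal protein genes (rows) from its own median over 26 arrays (columns, ordered by age), in log2 units, with colours ending at 3 units in either direction. On replicate 1 at 20 weeks the column is low throughout, while on replicate 4 at 16 weeks 9 genes lie more than 3 units below and others sit near 0.

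With all arrays the share of ribosomal protein genes that changed with age lay below that of all genes. Without the 2 arrays it lay above, but the count then moved with single further arrays. With all arrays, 2 of the 39 changed with age by limma's F test at an adjusted p under 0.05, Rpl4 (adjusted p = 0.00826) and Rpl8 (adjusted p = 0.0467), whose call most fits that left out an array lost. That is 5.13% of them, where 14.9% of all genes passed, and 8 of the 39 had an unadjusted p under 0.05. The next largest F values belonged to Rps15, Rplp2, Rps7, Rpsa, Rplp0 and Rpl13a, with adjusted p-values between 0.0668 and 0.134. Without the 2 arrays that stood apart, 12 of the 39 passed, or 30.8%, where 20.8% of all genes passed. When a further array was left out, the count ran from 7 to 16, so a share above that of all genes is not a settled trait. Of the age means of each gene, the highest fell at 12 weeks in 20 genes, at 8 weeks in 12, at 16 weeks in 6 and at 20 weeks in 1. The lowest fell at 20 weeks in 19, but without the 2 arrays it fell at 4 weeks in 25 and at 20 weeks in 9.

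The 12 genes called without the 2 arrays did not share 1 course. Of the large subunit they were Rpl4, Rpl7a, Rpl8, Rpl27a, Rpl37a and the P-stalk genes Rplp0 and Rplp2, whose proteins recruit the translation factors that hydrolyse GTP. Of the small subunit they were Rps2, Rps3, Rps7, Rps29 and Rpsa, where Rps2 and Rps3 lie at the entry of the mRNA channel and Rpsa is also known as a laminin receptor. The mean was highest at 8 weeks for Rpl4, Rpl8 and Rplp0, at 12 weeks for Rpl7a, Rplp2, Rps2, Rps7 and Rpsa, at 16 weeks for Rpl37a and Rps29, and at 20 weeks for Rpl27a and Rps3. Of 24 fits leaving out a further array, the F test call held in 6 for Rpsa, 7 for Rplp2, 12 for Rps7, 12 for Rplp0, 17 for Rpl37a and 21 for Rpl8. It held in each of the 24 for Rpl4, Rpl7a, Rpl27a, Rps2, Rps3 and Rps29. The spread between the highest and lowest age mean ran from 0.44 for Rps2 to 2.07 for Rpl27a on the log2 scale.

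The start regions of these 12 genes are shown because messages of this class are known for a pyrimidine stretch at their start, which some other messages carry too. RefSeq's promoter table for GRCm38.p6, the C57BL/6J reference, had an entry for 10 of the 12, all but Rpl8 and Rps29. Each line gives 30 bases, 5′ to 3′ on the gene's strand, of which the first 15 lie before the annotated start and the last 15 begin with it. Capitals mark the longest unbroken run of C and T in the window, and the first where several are equally long, as in Rps7.
Rpl4 (chr9:64173372-64173401, plus strand): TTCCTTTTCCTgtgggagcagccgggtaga
Rpl7a (chr2:26910792-26910821, plus strand): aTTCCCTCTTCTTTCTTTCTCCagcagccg
Rpl27a (chr7:109519180-109519209, plus strand): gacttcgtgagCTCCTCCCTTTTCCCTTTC
Rpl37a (chr1:72711245-72711274, plus strand): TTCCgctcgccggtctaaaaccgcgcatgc
Rplp0 (chr5:115559452-115559481, plus strand): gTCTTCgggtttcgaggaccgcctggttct
Rplp2 (chr7:141447636-141447665, plus strand): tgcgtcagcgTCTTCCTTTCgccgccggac
Rps2 (chr17:24720048-24720077, plus strand): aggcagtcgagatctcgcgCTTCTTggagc
Rps3 (chr7:99483695-99483724, minus strand): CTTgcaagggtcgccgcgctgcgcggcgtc
Rps7 (chr12:28635939-28635968, minus strand): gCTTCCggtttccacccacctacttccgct
Rpsa (chr9:120127751-120127780, plus strand): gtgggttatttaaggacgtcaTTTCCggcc
The runs are between 3 and 21 bases long. The longest, in Rpl7a, spans the annotated start, as do those of Rpl27a and Rplp2. Those of Rpl4, Rpl37a, Rplp0, Rps3 and Rps7 end before it, and those of Rps2 and Rpsa begin after it. Among the printed genes only Rplp2 had a C at the annotated start with at least 4 further pyrimidines. Rpl37a lies on chromosome 1, from which the strain carries NOD sequence, and the sources used here do not say whether its locus is inside that region.

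Across the class, 37 of the 42 genes had an entry in that table, with 43 annotated starts among them. A C at the annotated start with at least 4 further pyrimidines stood at 8 of the 43 starts (18.6%), against 2.51% of 32851 starts in the table. Such a run anywhere inside the 30-base window was present in 26 of the 43 (60.5%) against 36.4%. In the 300 bases around each start, on either strand, the sequence CCGGAAG, the core of the site bound by Gabpa and other ETS factors, was found in 18 entries (41.9%) against 8.86% of the table. The sequence AAGATGGC, the core of the Yy1 site, was in 3 (6.98%) against 2.75%. The GC box core GGGCGG was in 23 (53.5%) against 35.7%, and TATAAA in 5 (11.6%) against 13.6%. These are matches of letters at annotated starts, and they describe the class rather than its course with age.

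Rpl4, a protein whose long loop lines the exit tunnel of the large subunit, was lower at the later ages. Its log2 values at 4 weeks were 13.45, 13.99, 13.14 and 14.14, with a mean of 13.68 ± 0.47 (SD, n = 4). At 8 weeks they ran from 13.55 to 14.03 around a median of 13.81, and at 12 weeks from 13.09 to 13.81 around 13.63. At 16 weeks they were 12.78, 13.39, 12.66, 12.41 and 13.12, with a mean of 12.87 ± 0.38 (SD, n = 5). The 20-week values were 10.65, 12.39, 12.63, 12.65 and 13.28, where 10.65 is from the replicate that stood apart. At 20 weeks 4 of the 5 arrays lay below the lowest 4-week array, and the groups overlapped through the remaining one. The change from 4 to 20 weeks was -1.36 ± 0.34 (SE) in log2 units with all arrays, a 2.57-fold fall (adjusted p = 0.0367, limma). On the other 24 arrays it was -0.94 ± 0.22, a 1.92-fold fall (adjusted p = 0.00904). The F test called Rpl4 under all 39 other settings tried, with adjusted p-values from 4.66e-07 to 0.0423, but the 20-week call was lost without 4-week replicate 1, 2 or 4, or without 20-week replicate 2, 3 or 4 (adjusted p = 0.0548 to 0.164). That call was also lost with centred array medians (0.0572), without the filter (0.0569), with a trended and robust variance (0.0546), in a fit of only those ages (0.435) and with the actin covariate (0.114). Without the 2 arrays that stood apart it held in each of 24 fits that left out a further array.

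Rpl8, a large-subunit protein near the peptidyl transferase centre, had its higher values at 8 and 12 weeks. Its log2 values were 11.71, 11.46, 10.55 and 12.12 at 4 weeks. They ran from 11.23 to 12.43 at 8 weeks (median 12.18) and from 11.71 to 12.36 at 12 weeks (median 12.05). At 16 weeks they were 11.03, 11.68, 10.90, 8.76 and 11.44, each below the lowest 12-week array. At 20 weeks they were 9.999, 10.76, 11.03, 10.96 and 11.79. The step from 12 to 16 weeks was -1.28 ± 0.40 (SE) with all arrays and -0.78 ± 0.27 without the 2 arrays, and neither passed (adjusted p = 0.0731 and 0.0991). Its F test passed in both (adjusted p = 0.0467 and 0.0277), but with all arrays the call held in only 8 of the 26 fits that left out 1 array (adjusted p = 0.0214 to 0.0771). It was also lost without the filter (0.0641), with a trended and robust variance (0.0551), with the replicate block (0.0882), and with array spread (0.112) or the actin difference (0.168) as a covariate. On the other 24 arrays it held in 21 of 24 further fits, and was lost without 20-week replicate 2, 3 or 4.

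Rps2, at the mRNA entry of the small subunit, had its highest mean at 12 weeks on its own probe set. The 4-week values were 11.31, 11.52, 10.95 and 11.48. They ran from 11.23 to 11.50 at 8 weeks (median 11.34) and from 11.56 to 11.88 at 12 weeks (median 11.80). At 16 weeks they were 11.32, 11.30, 11.28, 11.30 and 11.37, all below the lowest 12-week array, with replicate 4 among the others. The 20-week values were 8.96, 11.30, 11.21, 11.49 and 11.61. From 12 to 16 weeks the gene fell by 0.44 ± 0.10 (SE) in log2 units without the 2 arrays (adjusted p = 0.0227). With all arrays the change was -0.44 ± 0.29 (adjusted p = 0.376). The fit pools the spread over ages, and replicate 1 at 20 weeks widened the SE. A brighter probe set that also names pseudogenes or unnamed loci gave -0.997 ± 0.27 without the 2 arrays (adjusted p = 0.0385). From 8 to 12 weeks that probe set gave 0.01, against 0.39 on the chosen one, and neither passed. The call from 12 to 16 weeks on the chosen probe set held in 20 of 24 fits that left out a further array, and was lost without 12-week replicate 3 or 4 or 16-week replicate 1 or 3 (adjusted p up to 0.0749).

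Rps29 and Rps3 were higher at 16 and 20 weeks once the 2 arrays were set aside. Rps29, a small zinc-binding protein of the small subunit head, had values of 14.50, 14.77, 14.82 and 15.10 at 4 weeks. It ran from 14.63 to 14.97 at 8 weeks (median 14.80) and from 14.59 to 15.04 at 12 weeks (median 14.84). At 16 weeks the values were 15.23, 15.30, 15.28, 14.93 and 15.25, and at 20 weeks 13.05, 15.36, 15.31, 15.19 and 15.18. Without 14.93 and 13.05, from the arrays that stood apart, each 16- and 20-week value lay above each earlier one. In that set Rps29 rose by 0.44 ± 0.11 (SE) from 12 to 16 weeks (adjusted p = 0.0272) and by 0.46 ± 0.12 from 4 to 20 weeks (adjusted p = 0.0179, limma). Of 24 fits leaving out a further array, the first call was lost in 5 (without 12-week replicate 3 or any of the 4 remaining 16-week arrays, adjusted p up to 0.084). The other was lost in 4 (without 4-week replicate 1 or 2 or 20-week replicate 2 or 3, up to 0.0595). With all arrays the changes were 0.37 ± 0.27 and 0.02 ± 0.30. Its other probe sets gave 0.98 and 0.85 for 20 against 4 weeks without the 2 arrays, in the same direction.

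Rps3, a small-subunit protein that also has a role in DNA repair, stood at 12.58, 12.95, 12.79 and 13.11 at 4 weeks. It ran from 12.68 to 13.41 at 8 weeks (median 13.11) and from 12.96 to 13.25 at 12 weeks (median 13.00). Values of 13.34, 13.32, 13.43, 12.93 and 13.63 at 16 weeks were followed by 10.58, 13.48, 13.62, 13.43 and 13.46 at 20 weeks. The 20-week arrays other than replicate 1 lay above all 4-week arrays. From 4 to 20 weeks the gene rose by 0.64 ± 0.14 (SE) without the 2 arrays, 1.56-fold (adjusted p = 0.00689), and the call held in each of 24 fits that left out a further array. With all arrays the change was 0.06 ± 0.40 (adjusted p = 0.974). Its other probe sets were dim, with means of 4.81 and 5.30, and their changes of -0.62 and 1.22 did not share a sign.

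Rpl27a had the widest range of age means among the 39 without the 2 arrays, but on 1 probe set only. Its values were 10.77, 10.63, 10.34 and 8.43 at 4 weeks. They ran from 9.18 to 11.19 at 8 weeks (median 10.32) and from 9.67 to 11.96 at 12 weeks (median 10.53). At 16 weeks they were 10.77, 11.62, 11.80, 8.83 and 12.26, and at 20 weeks 7.92, 12.13, 11.81, 12.39 and 12.14. The 20-week arrays other than replicate 1 lay above all arrays of 4 and 8 weeks. The rise from 4 to 20 weeks was 2.07 ± 0.50 (SE) without the 2 arrays (adjusted p = 0.0122) and 1.24 ± 0.78 with them (adjusted p = 0.486). It was lost when 4-week replicate 4 was also left out (adjusted p = 0.0551). A brighter probe set of that kind for Rpl27a gave 0.25 ± 0.25 without the 2 arrays (adjusted p = 0.657) and -0.22 with them, so the size rests on the chosen probe set.

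Rps20 and Rpl37a completed the genes called higher at 20 than at 4 weeks without the 2 arrays. Rps20, a small-subunit head protein, stood at 13.85, 13.64, 13.66 and 13.78 at 4 weeks and at 12.15, 14.08, 14.26, 13.92 and 14.53 at 20 weeks. Rpl37a, a zinc-binding large-subunit protein, stood at 13.36, 13.29, 13.12 and 13.60 and at 11.63, 13.88, 14.11, 13.65 and 13.98. In both genes only replicate 1 at 20 weeks lay below the 4-week arrays. Their rises were 0.46 ± 0.14 (adjusted p = 0.0371) and 0.56 ± 0.17 (SE, adjusted p = 0.0408, limma), and a second bright probe set gave 0.70 for Rps20 and 0.63 for Rpl37a. With all arrays the changes were 0.05 for Rps20 and 0.11 for Rpl37a, and neither passed. Of 24 fits leaving out a further array, 19 kept the call for Rps20 and 17 for Rpl37a.

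**Figure D3:**
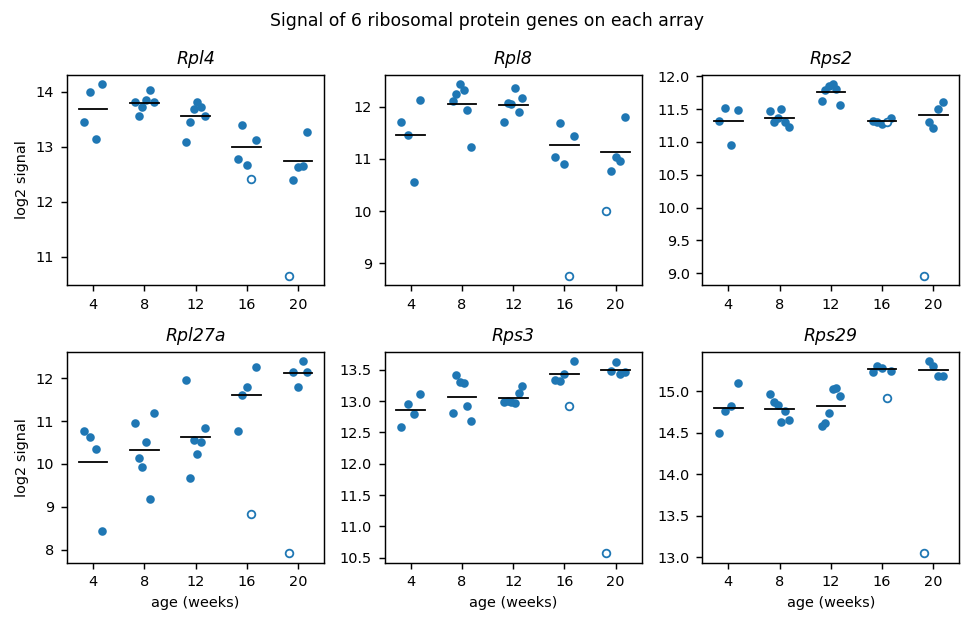
Log2 values of Rpl4, Rpl8, Rps2, Rpl27a, Rps3 and Rps29 on each of 26 arrays against age in weeks. Short horizontal lines mark each age's mean without replicate 4 at 16 weeks and replicate 1 at 20 weeks, which are drawn as open points. Rpl4 and Rpl8 are lower at 16 and 20 weeks, Rps2 is highest at 12 weeks, and Rpl27a, Rps3 and Rps29 are highest at 16 or 20 weeks, apart from the open points.

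Between 4 and 8 weeks, from the pre-disease to the early pre-clinical stage, 38 of the 39 genes had a positive change, 97.4% where 52.5% of all genes did. The exception was Rps29 at -0.01. The median was 0.37 in log2 units, against 0.03 over all genes and 0.41 over the 472 bright genes. By limma, none of the 39 passed in either direction, where 1.14% of all genes were called higher and 0.218% lower, and 3 had an unadjusted p under 0.05. Without the 2 arrays, which lie at other ages and enter only through the pooled spread, again none passed, 18 had an unadjusted p under 0.05, and 4.23% and 0.646% of all genes were called higher and lower. The median was 0.03 after quantile normalisation, and it turned to -0.13 with the spread of each array as a covariate. The mean array SD itself was 1.95 at 4 weeks and 2.12 at 8 weeks, and its part in the shift was not tested further.

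Among single genes the highest changes from 4 to 8 weeks were 1.23 ± 0.49 (SE) for Rps15, an assembly and decoding-site protein of the small subunit, and 1.00 ± 0.88 for Rpl11. Rpl11 with Rpl5 binds the p53 regulator Mdm2 when ribosome assembly fails. The Rps15 values at 4 weeks were 10.92, 10.75, 10.28 and 12.08, and at 8 weeks 12.14, 12.74, 12.94, 12.78, 12.25 and 10.55. Of the 8-week arrays 5 lay above all 4-week arrays, and replicate 6 lay among the lowest of both ages. Rpl37, Rps6 and Rps10 followed with 0.92, 0.84 and 0.82, while Rps2, Rpl14, Rpl10a and Rpl7 were at 0.05 to 0.10. Rps6 is the target of the S6 kinases. Brighter probe sets that also name pseudogenes or unnamed loci gave -0.14 for Rps6 and 0.22 for Rpl37 in the same step. Those of Rps2 and Rpl14 gave 0.37 and 0.15. The bright probe sets of Rps10 ran from 0.01 to 1.49.

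From 8 to 12 weeks, when leukocytes enter the gland, the class was level. The median change was 0.04, against 0.02 over all genes and 0.09 over the bright ones, and 25 of the 39 were positive, where 57% of all genes were. None passed limma's test in either direction and none had an unadjusted p under 0.05, where 0.00808% of all genes were called in each direction. With the 2 arrays left out none passed, 2 had an unadjusted p under 0.05, and 0.0404% and 0.0242% of all genes were called higher and lower. Rps2 was the only 1 of the 39 whose 12-week values lay wholly above its 8-week values, as did 0.299% of all genes. The highest changes were 0.46 for Rpsa, 0.39 for Rps2, 0.31 for Rpl27a, 0.31 for Rpl22 and 0.23 for Rpl27, and the lowest -0.25 for Rplp0, -0.25 for Rps19, -0.24 for Rpl4, -0.21 for Rps18 and -0.16 for Rpl11. Rps19 is the gene most often mutated in Diamond-Blackfan anaemia.

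From 12 to 16 weeks, into the early clinical phase, 32 of the 39 had a negative change, where 53.4% of all genes did. The median was -0.44, against -0.04 over all genes and -0.48 over the bright ones. None passed by limma, where 0.355% of all genes were called higher and 2.63% lower, and 8 had an unadjusted p under 0.05, each of them lower. Rpl8 and Rps2 lay wholly below their 12-week values, as did 3.66% of all genes. Quantile normalisation moved the median to -0.07 and the array spread as a covariate to 0.05.

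Without the 2 arrays the median of this step was -0.21, against 0.02 over all genes and -0.12 over the bright ones, and 29 of the 39 were negative, where 48% of all genes were. Then 1 gene was called higher (Rps29) and 1 lower (Rps2), where 1.36% and 2.69% of all genes were. Rps29 and Rps3 lay wholly above their 12-week values, as did 2.14% of all genes, and Rpl8 and Rps2 wholly below, as did 3.97%. The lowest changes with all arrays were those of genes that dropped on replicate 4: -2.02 for Rpl7a, -1.66 for Rps26, -1.56 for Rpl11, -1.45 for Rpl37a and -1.39 for Rps14. Without that array alone they were -0.78, -0.41, -0.29, 0.03 and -0.63. At the other end, with all arrays, stood Rpl27a at 0.42, Rps29 at 0.37, Rps6 at 0.33, Rps3 at 0.28 and Rps9 at 0.25. Brighter probe sets that also name pseudogenes or unnamed loci gave -0.25 for Rpl27a and -0.12 for Rps6.

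From 16 to 20 weeks, to the onset of secretory dysfunction, no gene of the class was called, with or without the 2 arrays. With all arrays 28 of the 39 were negative, where 47.9% of all genes were, and the median was -0.27 against 0.01 over all genes and -0.34 over the bright ones. None had an unadjusted p under 0.05 in limma's test, and 0.00808% of all genes were called in each direction. Leaving out replicate 1 at 20 weeks alone turned the median to 0.14, and leaving out replicate 4 at 16 weeks alone moved it to -0.54. After leaving out the 2 arrays it was -0.05, again none had an unadjusted p under 0.05, and 0.0566% and 0.0242% of all genes were called higher and lower. The lowest changes were -0.87 for Rps6, -0.70 for Rplp2, -0.65 for Rpl7, -0.57 for Rpl6 and -0.56 for Rpl41, and the highest 0.49 for Rps18, 0.52 for Rpl7a, 0.69 for Rpl11, 0.83 for Rps26 and 0.97 for Rpl37a. The last of these compares a 16-week group that holds 6.52 on replicate 4 with a 20-week group that holds 11.63 on replicate 1.

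Across the whole span, from 4 to 20 weeks, the direction of the class depended on replicate 1 at 20 weeks. With all arrays 27 of the 39 were negative, where 47.6% of all genes were, with a median of -0.22 against 0.01 over all genes and -0.24 over the bright ones. Only Rpl4 was called, lower, and none was called higher or had an unadjusted p under 0.05 in that direction by limma, where 1.31% of all genes were called lower and 0.897% higher. When they were left out 29 of the 39 were positive, where 52.8% of all genes were, and the median was 0.14 against 0.01 and 0.28. Leaving out only replicate 1 at 20 weeks also gave a median of 0.14, and quantile normalisation of all arrays gave -0.02.

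In that set 5 genes rose (Rpl27a, Rpl37a, Rps20, Rps29 and Rps3) and Rpl4 fell, where 5.82% of all genes were called higher and 2.43% lower. Of the 39, 10 lay wholly above their 4-week values, where 7.78% of all genes did, and these were the 5 genes called together with Rpl22, Rpl35, Rps6, Rps9 and Rps28. With all arrays the lowest changes after Rpl4 were -1.02 for Rpl7a, -0.96 for Rplp0, -0.74 for Rpl19 and -0.73 for Rpl7, and the highest after Rpl27a were 0.42 for Rps6, 0.41 for Rpl37, 0.22 for Rps9 and 0.12 for Rpl35. Brighter probe sets that also name pseudogenes or unnamed loci differed. There Rps6 changed by -0.60 with all arrays and by -0.16 without the 2 arrays. Rpl37 changed there by -0.03 and by 0.38. The comparisons of 8 and of 20 weeks share the 4-week arrays. The values at 4 weeks rest on 4 arrays, of which replicate 3 was the lowest for the class.

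**Figure D4:**
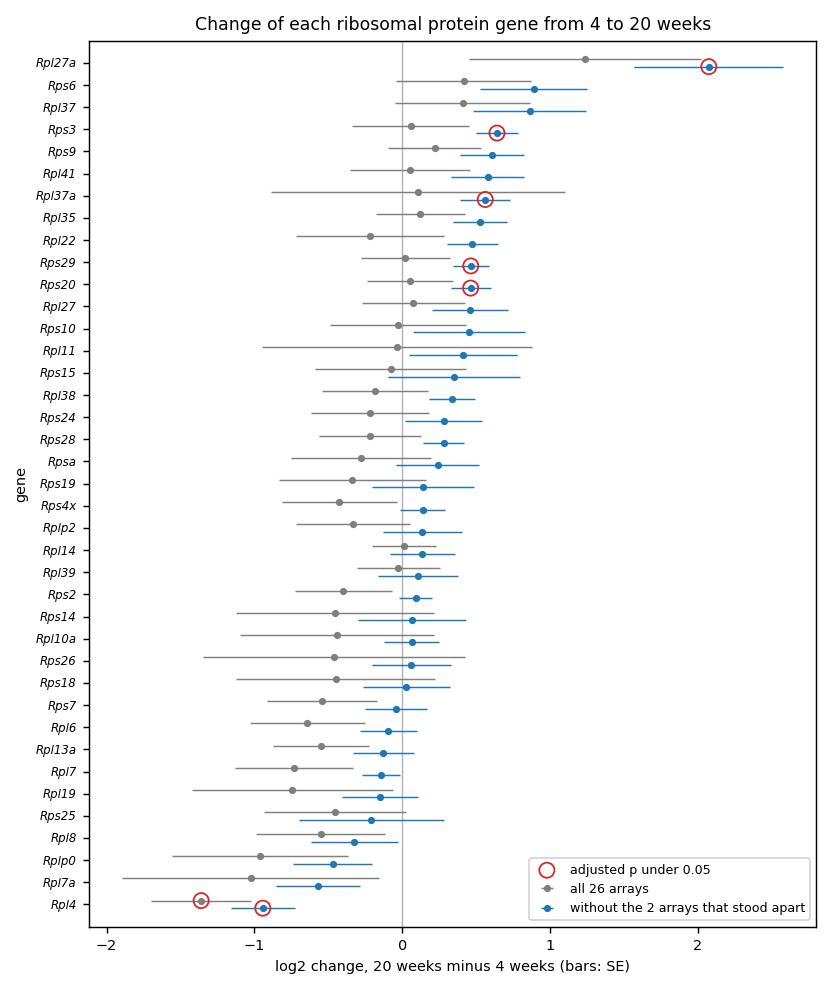
Log2 change from 4 to 20 weeks with its SE for each of 39 ribosomal protein genes, with all 26 arrays (grey) and without replicate 4 at 16 weeks and replicate 1 at 20 weeks (blue). Red rings mark an adjusted p under 0.05. Rpl4 is ringed below 0 in both sets, and Rpl27a, Rps3, Rpl37a, Rps29 and Rps20 are ringed above 0 in the blue set.

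Rpl7a and Rplp0 show how far the late values of a gene could rest on single arrays. Rpl7a, a large-subunit protein, had 16-week values of 11.14, 11.89, 11.90, 5.65 and 12.35 and 20-week values of 9.28, 11.40, 11.28, 11.89 and 11.66. Its 12-week values ran from 11.88 to 12.87 around a median of 12.72. The core P-stalk gene Rplp0, often used to normalise quantitative PCR, had 16-week values of 13.45, 14.02, 13.45, 10.06 and 13.51 and 20-week values of 10.78, 13.16, 13.18, 12.94 and 13.63. At 8 weeks Rplp0 ran from 13.73 to 14.50 around 14.30. In the set of 24 arrays the F test called both (adjusted p = 0.0161 and 0.036).

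Probe sets for the same gene disagreed on replicate 4 at 16 weeks. Of 70 probe sets of these genes with a mean over 7, 18 lay more than 3 units below the other 16-week arrays there, and in 5 genes some probe sets dropped while others did not. For Rps10 the probe sets read 5.60, 6.24 and 7.81 on that array, while its other probe sets read 12.03 and 12.37. Rps29 read 7.43 on one probe set and 12.95 and 14.93 on the others. Rps28 read 7.06 against 13.78 and 13.13, Rps20 read 8.48 against 13.74, and Rps14 read 9.07 against 11.78. The 18 were 9 of the 24 probe sets whose names end in a_at, 7 of the 34 in x_at, 2 of the 9 in at and 0 of the 3 in s_at.

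**Figure D5:**
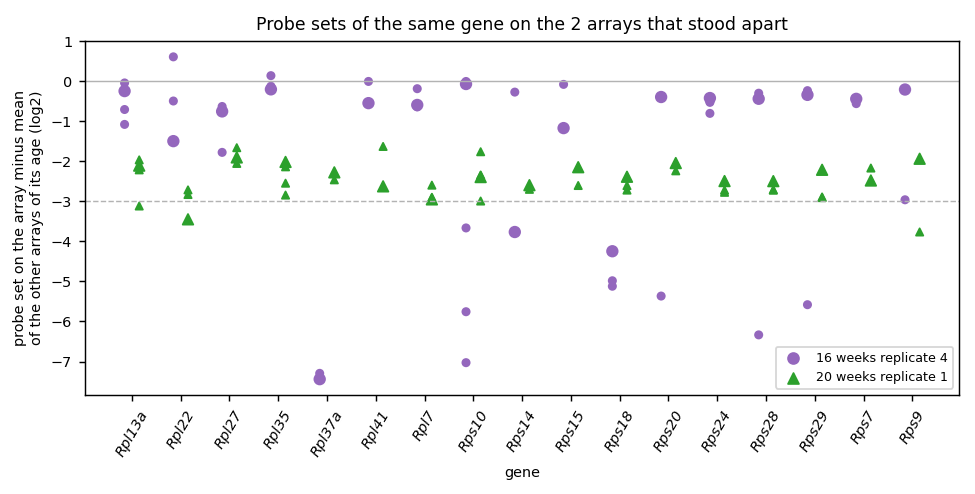
Difference between replicate 4 at 16 weeks (purple) or replicate 1 at 20 weeks (green) and the mean of the other arrays of that age, in log2 units, for 50 probe sets of 17 ribosomal protein genes with several bright probe sets. Larger markers are the probe sets that stand for their gene. The green points lie between -3.77 and -1.63 and the purple ones between -7.44 and 0.61, and the latter split within Rps10, Rps14, Rps20, Rps28 and Rps29.

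With all arrays, too, several probe sets of a gene did not always share a direction. Of 17 genes with at least a pair of probe sets over a mean of 7, 2 had opposite signs from 4 to 8 weeks and 8 from 8 to 12 weeks. In 5 genes the signs differed from 12 to 16 weeks, in 6 from 16 to 20 weeks, and in 4 over the whole span. Without the 2 arrays the counts were the same except from 16 to 20 weeks, where 9 genes had opposite signs. For Rps9 the change from 4 to 20 weeks without the 2 arrays was 0.61 on the chosen probe set and -0.09 on another. Rpl4, Rpl7a, Rpl8, Rplp0, Rplp2 and Rps2 had 1 probe set of their own. The means over all arrays were highest for Rps29 (14.88), Rps28 (14.02), Rps20 (13.89), Rpl13a (13.89) and Rplp0 (13.54). After the genes the filter dropped they were lowest for Rpl14 (4.08) and Rps25 (5.06). These order probe sets and not the genes' messages, since Rpl14 and Rps25 had brighter probe sets that also name pseudogenes or unnamed loci.

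Adding 102 probe sets that name 1 ribosomal protein gene and otherwise only pseudogenes or unnamed loci, a step chosen after seeing the data, raised the genes read to 66, all of them kept by the filter, 24 of them new. This class has many pseudogenes, which such probe sets may also read. With all arrays 2 of the 66 passed the F test, where 14.9% of genes did, and without the 2 arrays 18, where 20.8% did. Rpl12, Rps16 and Rps27 had means of 11.9, 14.3 and 13.2 on these probe sets. Rpl32, Rpl35a and Rpl36a were not matched and are not analysed here.

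From 4 to 20 weeks without the 2 arrays, 11 of the 66 rose, where 5.85% of all genes did, and Rpl4 fell, where 2.43% did. The 11 were Rpl10, Rpl23a, Rpl31, Rpl37a, Rpl39, Rps3, Rps15a, Rps20, Rps21, Rps27 and Rps29. Rps27, a zinc-finger protein of the small subunit, rose by 0.95 ± 0.14 (SE, adjusted p = 0.000178, limma), Rps21 by 0.75 ± 0.12 and Rps15a by 0.90 ± 0.26. Rpl39, a short protein in the wall of the exit tunnel, rose by 0.64 ± 0.14 (adjusted p = 0.00589). The median over the 66 was 0.28, and 51 were positive. With all arrays none of the 11 passed, and Rpl10 had a change of -0.16. From 12 to 16 weeks without the 2 arrays Rps21 and Rps29 rose, where 1.36% of all genes did, and Rpl5 and Rps2 fell, where 2.69% did. With all arrays none of the 66 was called in that step.

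The same array split the genes read only by shared probe sets. On replicate 4 at 16 weeks Rpl26 lay 8.38 log2 units below the other arrays of that age (-8.38), Rpl15 at -8.32, Rpl10 at -7.68 and Rpl24 at -6.22. Rpl3, which shapes the peptidyl transferase centre, lay at -3.53, and Rpl5, which binds the 5S ribosomal RNA, at -3.54.

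Genes that work with these proteins were taken from lists of the translation and ribosome assembly machinery. Of 73 mitochondrial ribosomal protein genes kept, which serve the separate ribosome of mitochondria, 23 passed the F test with all arrays and 30 without the 2, where 14.9% and 20.8% of all genes did. From 4 to 8 weeks 68 of them were positive, where 52.5% of all genes were. Their median was 0.67, against 0.03 over all genes and 0.41 over the bright ones. None was called from 4 to 20 weeks with all arrays. Without the 2 arrays 4 of the 73 rose, close to the 5.82% of all genes called higher. They rose by 1.69 for Mrpl45, 1.51 for Mrpl52, 1.27 for Mrpl13 and 0.87 for Mrpl57.

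Of 32 initiation factor genes 12 passed the F test with all arrays, where 14.9% of all genes did. In that set 4 fell from 4 to 20 weeks while none rose, where 1.31% of all genes were called lower and 0.897% higher. These were Eif2s3x, a subunit of the factor that brings the initiator tRNA, by -2.18 ± 0.36 (SE, adjusted p = 0.00226, limma), Eif4g3 by -2.05, the cap-binding protein Eif4e by -1.99 and Eif2b3 by -1.20. The median over the list was -0.88 with all arrays and -0.30 without the 2, when 7 fell and 2 rose, where 2.43% and 5.82% of all genes did. Of 51 assembly factor genes 15 passed the F test in each set, where 14.9% and 20.8% of all genes did. Ncl, the nucleolar protein nucleolin, fell by 2.19 ± 0.58 from 4 to 20 weeks (adjusted p = 0.0485) and Ltv1, needed to finish the small subunit, by 1.75 ± 0.37 (adjusted p = 0.016). In the set of 24 arrays 2 of this list rose, Dkc1 by 0.88 and Polr1c by 1.00, and 2 fell.

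Other messages with a 5′ terminal oligopyrimidine motif did not follow 1 direction from 4 to 20 weeks without the 2 arrays. Of 16 elongation factor and related genes 4 passed the F test with all arrays and 7 without the 2, and these shares, like those below, stand beside 14.9% and 20.8% of all genes. Eef1a1, which carries aminoacyl-tRNA to the ribosome, fell by 1.12 ± 0.19 (SE) from 4 to 20 weeks without the 2 arrays (adjusted p = 0.000516), and the poly(A)-binding protein gene Pabpc1 fell by 1.41. Vim, a filament protein of fibroblasts and leukocytes, rose by 2.14. In that comparison 2.43% of all genes were called lower and 5.82% higher. Of the 16, 7 were positive there, where 52.8% of all genes were. With all arrays 15 of the 16 were positive from 4 to 8 weeks, 2 from 12 to 16 weeks and 3 from 4 to 20 weeks. Of all genes 52.5%, 46.6% and 52.4% were positive in those comparisons. Of 19 genes of the S6 kinase and mTOR list 4 passed the F test in each set. On the 24 arrays Eif4ebp2, a repressor of cap-dependent translation, fell by 1.12 from 4 to 20 weeks, and none rose. Of 5 other ribosomal protein genes kept, none passed with all arrays and 2 did without the 2. Their symbols, Rpl7l1, Rpl22l1, Rpl39l, Rps27l and Rps3a1, do not match the rule that chose the class. Without the 2 arrays Rpl22l1 rose by 0.89 ± 0.17 from 4 to 20 weeks (adjusted p = 0.00185, limma). Fau, whose product is a ubiquitin-like protein fused to a small-subunit protein, had a change of 1.21 from 4 to 8 weeks that did not pass.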

How the data were processed

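Gene expression was measured in 26 lacrimal gland samples of 5 ages, 1 array each, grouped by the age in their titles. The authors deposited 1 table of log2 values for 45101 probe sets. RMA and GCRMA are named, without roles or versions, in the submitters' processing notes, and the sources used here do not say which of them made these log2 values. The platform's annotation gave the gene names: 34958 probe sets had 1 symbol, 932 several and 9211 none.

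Genes above their array's median on at least 4 arrays were kept. limma 3.58.1 (R 4.3.3, lmFit and eBayes) fitted a mean per age with no covariate, as an F test over the ages and 5 contrasts, 2-sided. Benjamini-Hochberg adjustment ran over the 12377 kept genes, with a threshold of 0.05. Changes are later minus earlier age. The script was tested on simulated data.

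The genes and lists were chosen with earlier results of these data known. Those named are, per contrast, the 5 highest and 5 lowest changes, the 8 largest F values, the 5 highest and 5 lowest means, genes dropped by the filter, genes of known role, and genes called. The fits without the 2 arrays that stood apart were planned with their narrow spread known, while those with shared probe sets, and those leaving out a further array, were added after seeing the data. Other settings changed the normalisation, filter, probe set per gene, variance model, weights, covariates and samples. Detection calls were not used, and the number of arrays limits the precision.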

Additional observations from a re-analysis of the deposited data

Results flagged for a closer look

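In a check of each age's arrays for a single array far from the others, 65 groups of values were examined, made up of the median deviation of the class and the genes called in either set, and 20 held such an array. Chance flags about 1 in 20 independent groups. These groups share the same arrays, and the genes were low together on some of them, so the count cannot be judged against that rate. Most of these genes were called only with replicate 4 at 16 weeks and replicate 1 at 20 weeks left out. Flags on those arrays were therefore largely set by how the genes were chosen. On replicate 1 at 20 weeks the median deviation of the 39 ribosomal protein genes was -2.55, far below the other 20-week arrays. The same array was far below them for Rpl27a (7.92), Rpl37a (11.63), Rpl7a (9.28), Rplp0 (10.78), Rplp2 (10.10), Rps2 (8.96), Rps29 (13.05), Rps3 (10.58) and Rps7 (10.11), all on the log2 scale. On replicate 4 at 16 weeks the lone low values were 6.52 for Rpl37a, 5.65 for Rpl7a, 8.76 for Rpl8, 10.06 for Rplp0 and 14.93 for Rps29. These arrays were low over many bright genes as well, and the cause was not tested.

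On replicate 6 at 8 weeks Rpl37a (13.14), Rpl7a (11.72) and Rplp2 (12.25) lay far below the other 8-week arrays. On replicate 1 at 12 weeks this was so for Rpl7a (11.88) and Rpsa (11.49). Both arrays were low for the class as a whole, with median deviations of -0.42 and -0.25.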

How the results depend on the processing

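The number of ribosomal protein genes called moved with several settings, while Rpl4 kept its F test call in each. The F test called 2 of 39 with all arrays, and 10 after quantile normalisation, 1 without the filter, 1 with a trended and robust variance, 32 with array weights, 4 with array spread and 1 with the actin 3′ to 5′ difference as a covariate, and 12 without the 2 arrays that stood apart. From 4 to 8 weeks 0 were called and 23 with array weights. From 12 to 16 weeks 0 were called, but 7 after quantile normalisation (5 higher, 2 lower), 7 with array weights (1 higher, 6 lower), 1 in a fit of only those ages, 4 with array spread (all higher) and 2 without the 2 arrays. From 4 to 20 weeks 1 was called, and 2 after quantile normalisation, 16 with array weights (13 higher, 3 lower), 6 without the 2 arrays, and 0 with centred medians, without the filter, with a trended and robust variance, in a fit of only those ages, or with the actin covariate. The weights ran from 0.0875 on replicate 1 at 20 weeks to 10.9 on replicate 2 at 4 weeks and their estimate did not fully converge. The causes of these differences were not tested. No called value changed sign in a way that reversed a result.

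Leaving out 1 array at a time, the F test called 1 to 6, the step from 12 to 16 weeks 0 to 6 and that from 4 to 20 weeks 0 to 3, each highest without replicate 1 at 20 weeks; the other steps stayed at 0. With the 2 arrays already left out, the F test called 7 (without 12-week replicate 3) to 16 (without 8-week replicate 6), against 12. The step from 4 to 8 weeks then called 0 to 11 (without 8-week replicate 6), that from 12 to 16 weeks 0 (without 12-week replicate 3) to 6 (without 12-week replicate 1), and that from 4 to 20 weeks 3 (without 4-week replicate 2) to 7 (without 12-week replicate 1).

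Replicate numbers are shared between ages. Same-numbered arrays did not deviate together, with a median correlation of -0.080 over 47 pairs (from -0.477 to 0.489) against 0.017 over 222 other pairs, so the numbers are not taken as pairs. With the replicate number as a block the F test called 1, and the comparison of 4 with 20 weeks still called 1. A signal close to its array's median may be background, so changes of Rpl14 and Rps25 on their own probe sets say little.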
